A study of Homo sapiens with 10 samples.

Results

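The epidermal growth factor (EGF) receptors and their ligands were followed here as 10 genes chosen by name: the receptors EGFR, ERBB2 and ERBB3, the ligands HBEGF, AREG, NRG1, TGFA, EREG and BTC, and ERRFI1, which encodes an intracellular inhibitor of EGFR. All 10 were among the 26040 genes of the table. Of these, 9 passed the filter on low values (at least 10 in at least 3 libraries), as did 14955 genes in all. BTC was the member that did not pass. The cells were U2OS, a human osteosarcoma line, and the series asked how loss of ARVCF, a catenin that binds cadherins at cell junctions, changes transcription driven by p53.

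EGF ligands are made as membrane-anchored precursors and are shed by metalloproteases of the ADAM family. Ligand binding makes the receptors pair, and the pairs signal through RAS and ERK and through PI3K. HBEGF, AREG, TGFA, EREG and BTC bind EGFR, NRG1 binds ERBB3, and ERBB2 has no ligand of its own and serves as a partner of the others. ERBB3 has little kinase activity and works mainly as a partner too. HBEGF and TGFA have been linked to p53 in earlier work.

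The lines had been infected with lentivirus carrying 1 of 3 shRNAs against ARVCF (shARVCF lines) or a negative control shRNA (control line), and all were selected in puromycin at 1 µg/ml. The labels' protocol speaks of single clones, so each shRNA may stand for 1 clone. Nutlin-3a, which frees p53 from its ubiquitin ligase MDM2, was given at 10 µM for 24 h. The other libraries are labelled untreated, and no vehicle is named. There was 1 untreated control library and 3 control libraries under nutlin-3a, all from 1 line, 3 untreated shARVCF libraries and 3 shARVCF libraries under nutlin-3a, where each replicate number is a line with its own shRNA. The values are fragments per gene, scaled across libraries by the authors. Tests are limma fits on log2(value + 1), so a fold change of a low gene is understated, and a gene was called at an adjusted p under 0.05. The p-values measure the spread between these libraries, which for the control line may be technical only.

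The libraries held 17821751 to 19903778 scaled fragments each. ARVCF itself read 291.8 to 343.2 in the untreated shARVCF libraries against 617.7 in the control, and 1188 to 1284 against 2376 to 2928 under nutlin-3a. The difference was log2 -0.93 without drug, not called against the lone control library, and -1.08 under nutlin-3a, which was called. ARVCF rose under nutlin-3a by log2 1.93 in the shARVCF lines and 2.08 in the control line. CDKN1A, a main p53 target, rose 8.64-fold in the shARVCF lines and 7.97-fold in the control line. Of 12 mesenchymal and osteoblast markers 10 passed the filter, SP7 stayed under 10 and TWIST1 was at 0 in every library. Among those that passed, COL1A2 reached at most 15.5. Of 9 epithelial markers 7 passed, and their levels are given further on. Of 7 blood and 4 endothelial markers 2 and 4 passed, summing to at most 673.0 and 142.7. In the treated control group, replicates 2 and 3 have far later library numbers than the other 8 libraries, and are treated below as a second library series. The control libraries under nutlin-3a also differed from the rest by transcript length: across 14733 genes, the log2 difference between shARVCF and control libraries had a Spearman rho of 0.58 with transcript length under nutlin-3a and of 0.01 without it. Genes share libraries and depth, so this is a description. Each call of a member that changed when every library's trend with length and GC was removed is given below with both values.

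Positions are those of hg38 in GENCODE release 29. EGFR spans chr7:55019021-55211628 and ERBB2 chr17:39687914-39730426, both on the plus strand. ERBB3 lies at chr12:56076799-56103505, plus strand. HBEGF lies at chr5:140332843-140346631 and TGFA at chr2:70447280-70554193, both on the minus strand. EREG (chr4:74365143-74388751, plus), AREG (chr4:74445134-74455009, plus) and BTC (chr4:74744759-74794686, minus) share 1 stretch of chromosome 4. ERRFI1 lies at chr1:8004404-8026308, minus strand. The longest annotated transcript ranged from 1240 nt for AREG to 9821 nt for EGFR, with 2386 nt for HBEGF and 3104 nt for ERRFI1. ERBB2 overlaps PGAP3 and MIEN1 on the opposite strand, and whether strand was used in counting is not stated in the sources used here. EGFR-AS1, antisense to EGFR, reached at most 5.49 scaled fragments.

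RefSeq promoter entries (GRCh38.p14) matched 8 of the 10 members. NRG1, which rose in both kinds of line, and ERBB3 have no entry. EGFR is shown as the receptor whose response was called different between the kinds of line as deposited. With the length and GC trend removed that difference was not called (log2 0.29, adjusted p = 0.559). AREG and HBEGF are shown as ligands that rose in both, and ERRFI1 as the inhibitor that fell in both. The windows are the 250 bases upstream of the start. They are AREG (chr4:74444886-74445135, plus), HBEGF (chr5:140346604-140346853, minus), EGFR (chr7:55018767-55019016, plus) and ERRFI1 (chr1:8026310-8026559, minus), written 5′ to 3′ on the gene's strand, with capitals marking every match to the motifs named after them.
AREG: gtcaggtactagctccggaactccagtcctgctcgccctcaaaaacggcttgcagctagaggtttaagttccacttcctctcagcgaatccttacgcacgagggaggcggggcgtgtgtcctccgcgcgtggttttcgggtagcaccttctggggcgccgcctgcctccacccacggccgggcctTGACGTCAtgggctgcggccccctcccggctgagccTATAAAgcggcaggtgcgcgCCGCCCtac
HBEGF: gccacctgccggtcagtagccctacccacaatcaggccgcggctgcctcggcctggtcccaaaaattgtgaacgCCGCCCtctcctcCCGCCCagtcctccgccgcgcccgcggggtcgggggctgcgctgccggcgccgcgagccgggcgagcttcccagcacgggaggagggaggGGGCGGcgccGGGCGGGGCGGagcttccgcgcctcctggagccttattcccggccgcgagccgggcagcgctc
EGFR: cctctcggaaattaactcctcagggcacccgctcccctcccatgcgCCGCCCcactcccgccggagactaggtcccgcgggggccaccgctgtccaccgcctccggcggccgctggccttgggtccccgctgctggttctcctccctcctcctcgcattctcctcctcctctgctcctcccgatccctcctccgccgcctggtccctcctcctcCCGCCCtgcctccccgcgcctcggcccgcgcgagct
ERRFI1: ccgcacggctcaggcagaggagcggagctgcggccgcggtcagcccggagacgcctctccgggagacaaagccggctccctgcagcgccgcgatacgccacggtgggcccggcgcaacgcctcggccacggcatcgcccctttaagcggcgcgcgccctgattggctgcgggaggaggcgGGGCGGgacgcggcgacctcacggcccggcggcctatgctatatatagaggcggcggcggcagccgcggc
The motifs, searched on both strands, were the TATA box (TATAAA), the cAMP response element (TGACGTCA), the GC box (GGGCGG, or CCGCCC on the other strand), the AP-1 site (TGANTCA), the CHR element (TTTGAA) and the p53 decamer. AREG had a TATA box that began 29 bases upstream of the start, a cAMP response element that began 65 bases upstream, and 1 GC box. HBEGF had 5 GC boxes, the 2 nearest the start overlapping by 1 base, and no TATA box. EGFR had 2 GC boxes and ERRFI1 had 1. Of all 34943 RefSeq windows of this length, 10.8% held the TATA box, 1.63% the cAMP response element, 42.5% the GC box, 6.59% the AP-1 site, 13.4% the CHR element and 5.58% the p53 decamer. None of the 8 windows held the p53 decamer, which says only that these letters are not in these windows.

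In the fit of group means, where libraries were not paired by line, 3 ligands were called higher under nutlin-3a in both kinds of line. EREG was also called in both with line kept as a block, as given below. That block pairs libraries only in the shARVCF lines. AREG, HBEGF and NRG1 rose and ERBB3 and ERRFI1 fell. EGFR and TGFA were called higher in the shARVCF lines and not in the control line, and the difference between the lines is tested further on. In the shARVCF lines 7 of the 9 tested members were called, 5 higher and 2 lower, where 42.8% of all tested genes were called (21.0% higher, 21.7% lower). In the control line 5 were called, 3 higher and 2 lower, where 57.1% of all tested genes were called (25.1% higher, 32.0% lower). With the length and GC trend removed, 8 members were called in each, beside 45.1% of all genes in the shARVCF lines and 49.8% in the control line. Over all genes, 3752 rose and 4780 fell in the control line as deposited, and 4231 rose and 3102 fell with the trend removed. Fewer transcripts per cell and fewer cells that make them cannot be told apart in such bulk RNA.

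**Figure D1:**
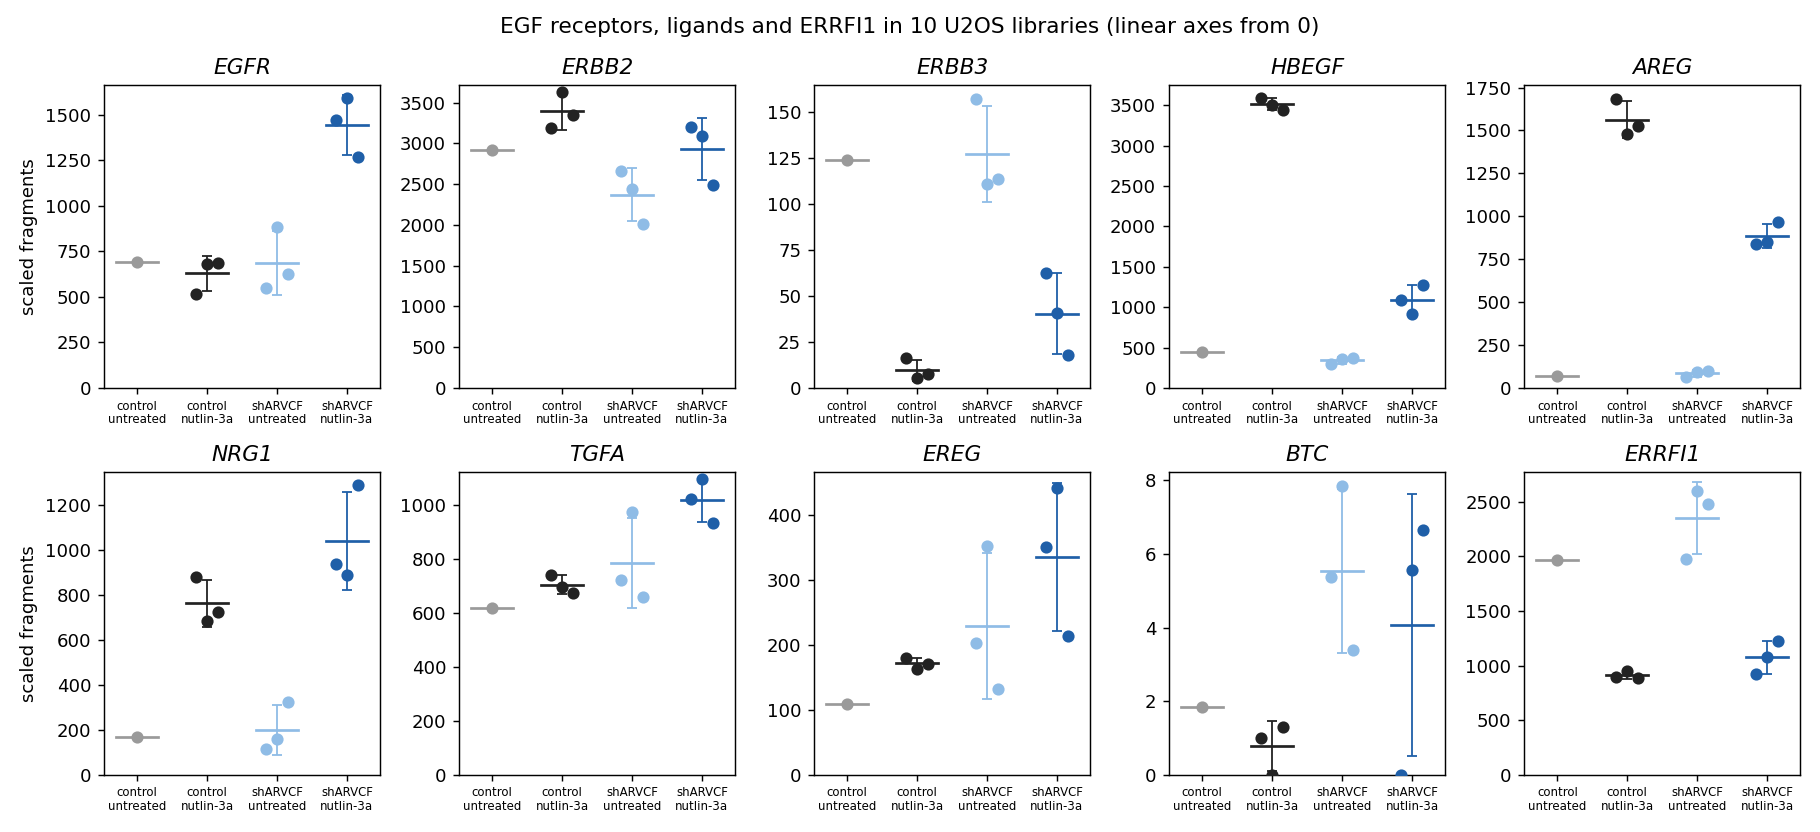
Scaled fragments (linear axes from 0) of the 10 members in each library, by group. Points are libraries, horizontal lines are group means and error bars are SDs (n = 3), with a single point for the untreated control. AREG, HBEGF and NRG1 are higher under nutlin-3a in every line, EGFR stands at 1267 to 1594 in the treated shARVCF libraries and at 884.8 or below in all others, and BTC stays under 8.

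AREG, the ligand amphiregulin, went from 62.7, 91.2 and 98.6 scaled fragments in untreated shARVCF lines 1, 2 and 3 to 841, 848 and 968 under nutlin-3a. Control cells read 71.3 without drug and 1684, 1479 and 1528 with it. Every treated library was above every untreated one. The shARVCF lines gained 10.6-fold (log2 3.40, SE 0.16, adjusted p = 6.89e-09), whereas the control gained 21.6-fold (log2 4.43, SE 0.22, adjusted p = 2.24e-08). By line, the shARVCF rises were 13.4-fold, 9.30-fold and 9.82-fold.

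HBEGF, heparin-binding EGF-like growth factor, went from 293.1, 353.0 and 371.8 to 1089, 911 and 1275 in the shARVCF lines. The control line read 440.0 without drug and 3587, 3505 and 3444 with it. The treated control libraries, at 3512 ± 72 (SD, n = 3), stood above all 7 others. This was a 3.20-fold rise in the shARVCF lines (log2 1.68, SE 0.13, adjusted p = 4.58e-07), against 7.97-fold in the control (log2 2.99, SE 0.18, adjusted p = 8.45e-08).

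NRG1, the neuregulin that binds ERBB3, is encoded on the plus strand of chromosome 8 (31639386 to 32767959). It read 112.6, 159.8 and 322.9 in the untreated shARVCF lines and 937.6, 887.1 and 1287 under nutlin-3a. Control cells read 169.0 without drug and 879.4, 682.5 and 721.3 with it. No treated library overlapped an untreated one, and line 3 was the highest of the shARVCF lines in both states. It rose 5.66-fold in the shARVCF lines (log2 2.50, SE 0.34, adjusted p = 0.000354), close to the 4.46-fold of the control (log2 2.16, SE 0.48, adjusted p = 0.0043).

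TGFA moved less. Its values were 722.9, 975.6 and 661.1 in the untreated shARVCF lines and 1023, 1099 and 935.8 under nutlin-3a, so line 2 without drug lay above line 3 with it. The control line read 620.1 without drug and 743.0, 698.0 and 673.4 with it. The difference was 1.31-fold in the shARVCF lines (log2 0.39, SE 0.13, adjusted p = 0.0331) and was not called in the control line (log2 0.18, adjusted p = 0.429). Without untreated line 3 the shARVCF value was 0.28 (adjusted p = 0.133). It was also not called without untreated line 1 (0.34, adjusted p = 0.107), treated line 1 (0.39, adjusted p = 0.0725) or treated line 2 (0.34, adjusted p = 0.112). The values with the trend removed were 0.48 in the shARVCF lines (adjusted p = 0.0072) and 0.78 in the control line (adjusted p = 0.0027), called in both.

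EREG, the ligand epiregulin, differed more between lines than between treatments. It read 202.4, 353.0 and 132.8 in untreated lines 1, 2 and 3 and 350.9, 441.9 and 214.6 under nutlin-3a, with line 2 highest and line 3 lowest in both states. The control line gave 108.7 without drug and 180.0, 163.4 and 170.9 with it. Neither effect was called (log2 0.60, adjusted p = 0.185, in the shARVCF lines and log2 0.65, adjusted p = 0.271, in the control line). With line kept as a block the same differences were called (adjusted p = 0.0034 and 0.012). The control libraries all come from the same line, so the block pairs none of them. The control difference was unchanged by it, and only the spread shared by the fit was estimated anew. With the length and GC trend removed the differences were 0.88 (adjusted p = 0.0397) in the shARVCF lines and 1.67 (adjusted p = 0.0092) in the control line. BTC, betacellulin, had 0 to 7.84 scaled fragments in the 10 libraries, beside a floor of 3 fragments at 2.55 to 3.89, and was not tested.

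EGFR, the receptor bound by most of these ligands, rose in the shARVCF lines. Untreated lines 1, 2 and 3 had 550.1, 884.8 and 626.7 and the treated lines 1471, 1594 and 1267. All treated shARVCF libraries were above all untreated ones, and the rise was log2 1.42, 0.85 and 1.01 by line. The mean rise was 2.13-fold (log2 1.09, SE 0.17, adjusted p = 0.000318), and 1.03 with the trend removed. The control line had 693.8 without drug and 517.2, 679.6 and 688.3 with it, all 3 below the untreated library, replicates 2 and 3 at 0.980 and 0.992 times its value. That effect was not called (log2 -0.15, SE 0.25, adjusted p = 0.61). It became 0.74 with the length and GC trend removed and was called (adjusted p = 0.0186), so the direction in the control line turned with this setting.

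ERBB2, the ligandless partner receptor, was the most abundant receptor in fragments and changed little. The untreated shARVCF lines read 2656, 2437 and 2017 and the treated ones 3206, 3086 and 2494. Each line was higher under nutlin-3a, by log2 0.27 to 0.34, yet the groups overlapped and the effect was not called (log2 0.31, SE 0.12, adjusted p = 0.0618). It was called with line as a block (adjusted p = 0.0063). The control line read 2918 without drug and 3193, 3637 and 3349 with it (log2 0.22, adjusted p = 0.306).

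ERBB3, the neuregulin receptor, fell in both kinds of line from a low level. It went from 157.1, 110.8 and 113.7 to 62.3, 40.7 and 18.1 in the shARVCF lines. Control cells went from 124.0 to 16.0, 5.15 and 7.77. All treated libraries were below all untreated ones, and those of the control line approached the floor of 3 fragments. The fall was 3.43-fold in the shARVCF lines (log2 -1.78, SE 0.45, adjusted p = 0.00753), against 12.9-fold in the control (log2 -3.68, SE 0.64, adjusted p = 0.000408). ERBB3 thus fell while the mRNA of its ligand NRG1 rose in the same libraries.

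ERRFI1, which binds the kinase domain of EGFR and blocks it, fell by similar amounts in the lines. Untreated shARVCF lines 1, 2 and 3 read 1975, 2601 and 2485, and the treated lines 919.3, 1075 and 1228. The control line read 1965 without drug and 898.5, 949.1 and 887.1 with it. No treated library reached an untreated one. The fall was 2.19-fold in the shARVCF lines (log2 -1.13, SE 0.13, adjusted p = 1.37e-05), against 2.15-fold in the control (log2 -1.11, SE 0.18, adjusted p = 0.000189). With the length and GC trend removed the falls were -0.99 and -0.67, both called.

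**Figure D2:**
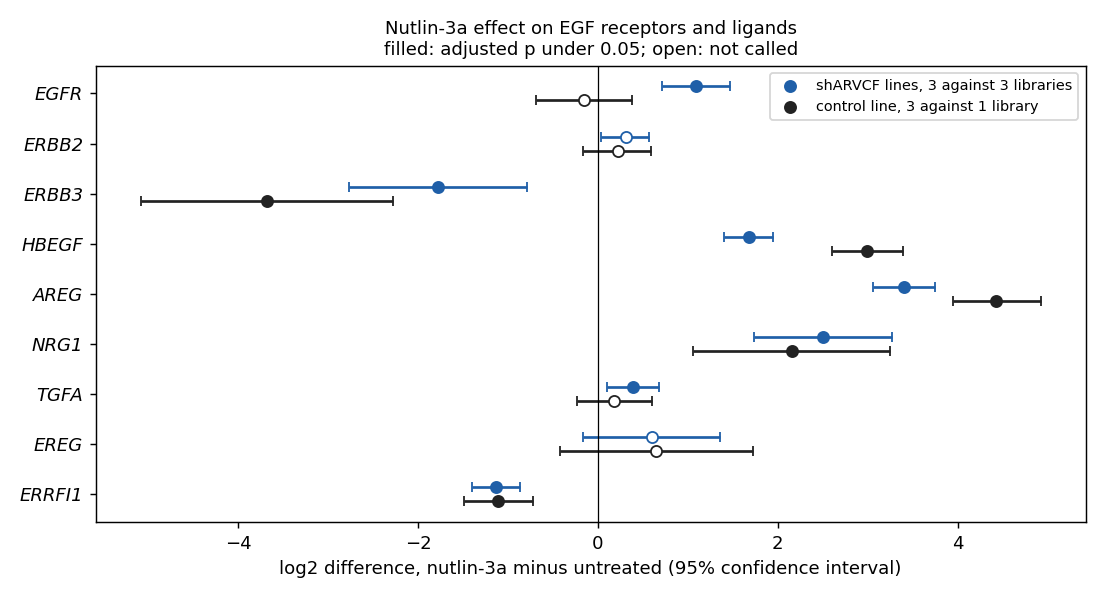
Log2 difference, nutlin-3a minus untreated, of the 9 tested members in the shARVCF lines (blue, 3 against 3 libraries) and the control line (black, 3 against 1 library). Bars are 95% confidence intervals from limma, filled points were called and open points were not. AREG lies at 3.40 and 4.43, HBEGF at 1.68 and 2.99, and EGFR at 1.09 and -0.15 in the shARVCF and control lines.

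Under nutlin-3a the shARVCF lines had less HBEGF and AREG mRNA than the control line, and more EGFR, ERBB3, TGFA and EREG. Of the 9 members 6 were called, 4 higher and 2 lower, where 58.4% of all tested genes were called (32.3% higher, 26.1% lower). The 2 lower members are the 2 shortest transcripts tested. Sorted into 4 equal classes by length, all tested genes had median log2 differences of -0.55, -0.16, 0.27 and 0.77 from the shortest class to the longest. With the length and GC trend removed, 3 members were called, ERBB3 higher and HBEGF and AREG lower, beside 38.9% of all genes. Over all genes 4829 were higher and 3902 lower as deposited, and 2336 and 3390 with the trend removed.

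HBEGF was 3.25-fold lower in the treated shARVCF libraries, at 911 to 1275 against 3444 to 3587 in the control (log2 -1.70, SE 0.13, adjusted p = 4.41e-07). Its groups were separated by a wide gap, and the difference was -1.58 with the trend removed (adjusted p = 2.48e-06). AREG was 1.76-fold lower, at 841 to 968 against 1479 to 1684 (log2 -0.82, SE 0.16, adjusted p = 0.000693). It also had no overlap, and stood at -0.63 with the trend removed (adjusted p = 0.00367). In the first library series, where the only treated control library is replicate 1, HBEGF was at -1.73 and AREG at -0.93, both called.

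EGFR was 2.31-fold higher, at 1267 to 1594 against 517.2 to 688.3 (log2 1.20, SE 0.17, adjusted p = 9.36e-05). In the first library series it was 1.47 and called, but with the length and GC trend removed it was 0.26 and not called (adjusted p = 0.224). EGFR is the longest transcript of the 9. ERBB3 was 3.80-fold higher, at 18.1 to 62.3 against 5.15 to 16.0 (log2 1.92, SE 0.45, adjusted p = 0.00313). It was 1.43 with the trend removed (adjusted p = 0.0275) and 1.11 in the first series, where it was not called (adjusted p = 0.162).

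TGFA was 1.44-fold higher, at 935.8 to 1099 against 673.4 to 743.0 (log2 0.53, SE 0.13, adjusted p = 0.0047), and EREG 1.87-fold higher, at 214.6 to 441.9 against 163.4 to 180.0 (log2 0.91, SE 0.34, adjusted p = 0.0417). Neither pair of groups overlapped. With the trend removed the differences were 0.00 for TGFA (adjusted p = 0.98) and 0.07 for EREG (adjusted p = 0.876). In the first series they were 0.45 (adjusted p = 0.114) and 0.83 (adjusted p = 0.269). The call of EREG was also lost without any single library among the 3 treated control libraries and treated shARVCF lines 1 and 2, at 0.68 to 0.94 (adjusted p from 0.0846 to 0.136).

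The other 3 tested members were not called. NRG1 was at log2 0.43 (adjusted p = 0.302), although its lowest shARVCF library, 887.1, lay above the highest control library, 879.4. ERBB2 was at -0.22 (adjusted p = 0.144) and ERRFI1 at 0.23 (adjusted p = 0.139), and the groups of both overlapped. ERRFI1 was called with libraries scaled to equal totals (0.34, adjusted p = 0.0278) and without treated shARVCF line 1 (0.33, adjusted p = 0.0434). With the trend removed NRG1 was -0.37 and ERRFI1 -0.12.

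The treated control libraries stood apart in another list as well. The summed level of 9 epithelial markers was 26850 to 27790 in them and 9036 to 14380 in the other 7 libraries, carried by KRT8 (11940 to 12640 against 4531 to 6489) and KRT18 (13820 to 15290 against 4204 to 7742). EPCAM was 50.2 to 73.8 in them, below the 142.5 of the untreated control, CDH1 was 2.31 to 32.6, and GRHL2 was at 0 in every library. The part of this shift in the differences of HBEGF and AREG was not tested.

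**Figure D3:**
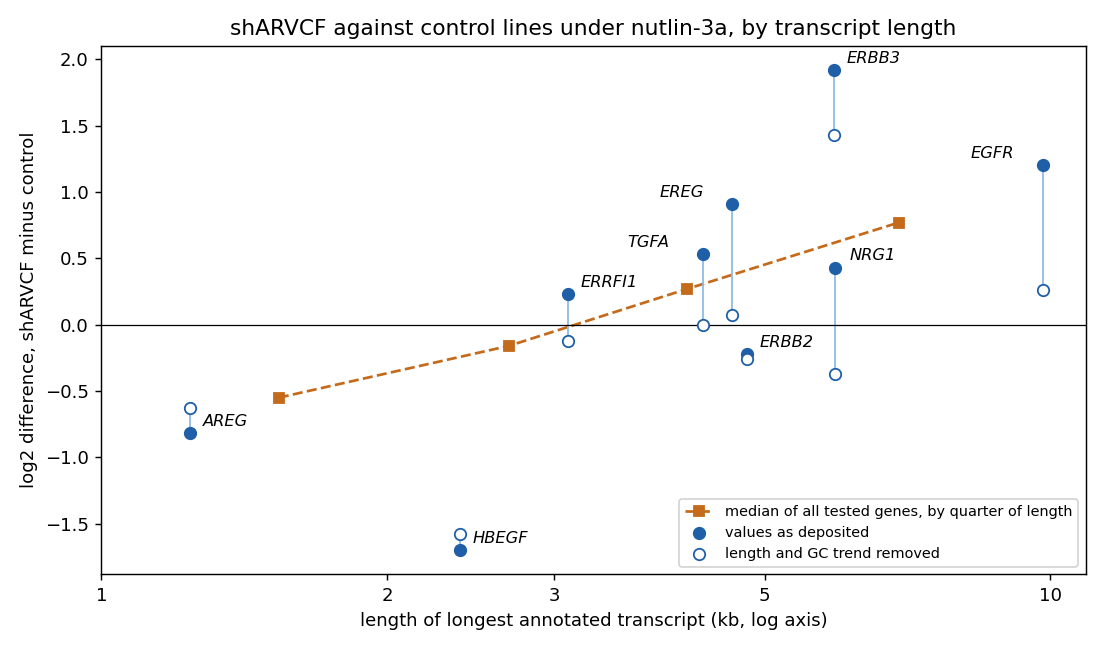
Log2 difference, shARVCF minus control, under nutlin-3a for the 9 tested members against the length of the longest annotated transcript (kb, log axis). Filled points are values as deposited, open points those with the length and GC trend removed, and squares are medians of all tested genes in 4 length classes. EGFR drops from 1.20 to 0.26 and EREG from 0.91 to 0.07, while HBEGF stays at -1.70 and -1.58.

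Without drug, no member differed between the shARVCF lines and the control library as tested. None was called by limma, all adjusted p were 1.0, and none had an unadjusted p under 0.05, where 0.0201% of all tested genes were called (3 of 14955, and 237 at an unadjusted p under 0.05). With a single control library the intervals were wide. EGFR was at log2 -0.04 with a 95% confidence interval of -0.58 to 0.49, and ERBB3 at 0.02 with an interval of -1.38 to 1.42. HBEGF was at -0.38 (-0.77 to 0.01, unadjusted p = 0.0555), its 3 shARVCF libraries all below the control library, and EREG at 0.96 (-0.12 to 2.03, unadjusted p = 0.0748), all 3 above it.

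The last comparison asked whether nutlin-3a acted differently in the shARVCF lines than in the control line. The rise of HBEGF and AREG was smaller in the shARVCF lines, and the effect on EGFR was higher there. Of 9 members these 3 were called, 1 higher and 2 lower, where 31.8% of all tested genes were called (19.3% higher, 12.5% lower). HBEGF differed by log2 -1.32 (SE 0.22, adjusted p = 0.000935): the shARVCF lines rose by 1.89, 1.37 and 1.77, each less than the 2.97 to 3.02 of the treated control libraries. AREG differed by -1.03 (SE 0.27, adjusted p = 0.0125), with rises of 3.73, 3.20 and 3.28 against 4.36 to 4.54. EGFR differed by 1.25 (SE 0.30, adjusted p = 0.00819), with 1.42, 0.85 and 1.01 against -0.42 to -0.01. All of these share the lone untreated control library.

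With the length and GC trend removed, HBEGF was the 1 member called, at -1.19 (adjusted p = 0.00341), beside 13.5% of all genes (2893 higher and 1863 lower as deposited, 781 and 1213 with the trend removed). AREG was then at -0.77 (adjusted p = 0.0561) and EGFR at 0.29 (adjusted p = 0.559). ERBB3 fell less in the shARVCF lines by log2 1.91, which was not called (SE 0.79, adjusted p = 0.0849). It was called with line as a block (adjusted p = 0.0428), without treated control replicate 1 (2.31, adjusted p = 0.035) and without treated shARVCF line 3 (2.38, adjusted p = 0.0152). The remaining 5 differences were not called: NRG1 0.35 (interval -0.99 to 1.68), TGFA 0.21 (-0.30 to 0.71), ERBB2 0.09 (-0.37 to 0.55), ERRFI1 -0.02 (-0.50 to 0.45) and EREG -0.05 (-1.36 to 1.26).

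Levels can be compared between genes only per length, here as scaled fragments per kb of the longest transcript. These are values as deposited, without removal of the length and GC trend. Without drug ERRFI1 led, at 632.9 per kb in the control library and 758.3 (636.2 to 838.0, n = 3) in the shARVCF lines, ahead of ERBB2 at 608.9 and 494.6 per kb. In the treated control line HBEGF (1472 per kb) and AREG (1261) were above ERBB2 (708.0), and ERRFI1 was at 293.7. In the treated shARVCF lines AREG led at 714.3 per kb, ERBB2 followed at 611.2 and HBEGF was at 457.5. There the libraries of ERBB2 and HBEGF overlapped, as did those of HBEGF and ERRFI1 (346.1) and of NRG1 (174.9) and EGFR (147.0). In the untreated shARVCF lines TGFA and HBEGF overlapped, as did each neighbouring pair from EGFR through AREG, EREG and NRG1 to ERBB3. ERBB3 was the lowest of the tested members in every group, from 21.5 per kb in the untreated shARVCF lines down to 1.63 in the treated control.

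The 6 ligands together made 438.4 scaled fragments per kb in the untreated control library and 478 ± 74 (SD, n = 3) in the untreated shARVCF lines. Under nutlin-3a they made 2974 to 3221 in the 3 control libraries and 1657 ± 123 in the shARVCF lines. HBEGF and AREG carried most of this sum of 6 in the treated libraries. NRG3, a family ligand outside the sum, averaged 59.4 per kb in the untreated control and 53.7 in the treated control. In the shARVCF lines it averaged 58.8 without drug and 67.4 with it. AREG rose from 13.1% of the summed ligand level to 41.2% ± 1.0 in the control line, and from 14.2% ± 2.3 to 43.1% ± 0.8 in the shARVCF lines. HBEGF had 42.1% without drug and 48.1% ± 1.4 with it in the control line, against 30.0% ± 3.1 and 27.5% ± 2.8 in the shARVCF lines. TGFA went down as a share, from 32.8% to 5.3% in the control line and from 38.2% to 14.4% in the shARVCF lines, although its mean level was higher under the drug in both. These sums and shares use values as deposited, without removal of the length and GC trend. In the control line, nutlin-3a effects over all tested genes had a median log2 of 0.55 in the shortest length class and -0.79 in the longest. AREG and HBEGF are the shortest transcripts tested. The part of that trend in the sums and shares was not tested. The shares are descriptions and were not tested either.

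**Figure D4:**
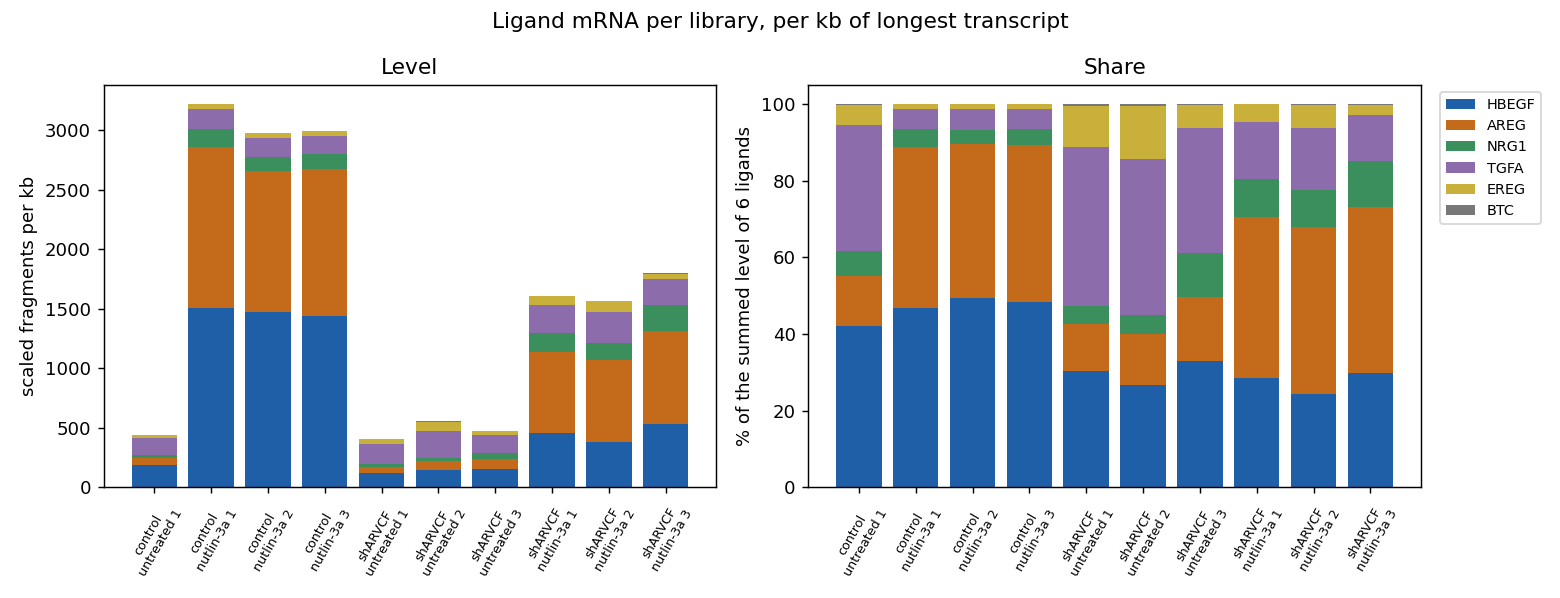
Ligand mRNA in each library as deposited, in scaled fragments per kb of the longest transcript (left) and as a percentage of the sum over 6 ligands (right). Each bar is 1 library and colours are ligands. The treated control libraries reach 2974 to 3221 per kb, and AREG fills 40.1% to 43.6% of every treated bar.

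The mRNAs of proteins that release ligands were listed as well. Of 11 listed sheddases, iRhoms and their partners, 10 were tested. In the shARVCF lines nutlin-3a raised 5 and lowered none (5 of 10 called, where 42.8% of all tested genes were), among them RHBDF2 (log2 1.30, adjusted p = 9.44e-05) and RHBDF1 (0.59, adjusted p = 0.000237), the iRhoms that carry ADAM17 to the surface, and the metalloprotease ADAM12 (1.17, adjusted p = 1.74e-06). In the control line 4 rose and 3 fell (70.0% called, beside 57.1% of all). Those that fell were ADAM9 (-1.72, adjusted p = 1.54e-06), ADAM10 (-1.01, adjusted p = 0.000146) and ADAM17 (-0.95). ADAM17 was among the genes that rose in the shARVCF lines (0.41, adjusted p = 0.0144). The median was 0.47 in the shARVCF lines and 0.55 in the control line, beside 0.00 and -0.10 over all tested genes. With the trend removed 7 of 10 rose and 0 fell in the shARVCF lines, where 45.1% of all genes were called. In the control line 4 rose and 1 fell, so that 5 of 10 were called, near the 49.8% of all genes. ADAM10 stood at 0.27 in the control line with the trend removed (adjusted p = 0.104), whereas ADAM9 stayed lower at -0.96 (adjusted p = 0.00026). ADAM17 was then at -0.19 there and not called. Under nutlin-3a ADAM9 was higher in the shARVCF lines by 2.70 (adjusted p = 6.17e-09), and by 2.09 with the trend removed. ADAM17 was higher by 1.41 (adjusted p = 1.17e-06), and by 0.77 with the trend removed (adjusted p = 0.000177).

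Of 6 other EGF family genes listed, 4 were tested, and ERBB4 and EPGN did not pass the filter. EGF itself fell in the shARVCF lines, at log2 -2.02 (adjusted p = 0.00092) as deposited and -1.92 (adjusted p = 0.0011) with the trend removed. For the control line it was -1.44 and called (adjusted p = 0.0353), but -0.69 and not called (adjusted p = 0.289) with the trend removed. NRG4 rose in the control line (1.86, adjusted p = 0.0266) and was lower in the shARVCF lines under nutlin-3a (-1.62, adjusted p = 0.00881). Both genes were low. NRG4 read 9.14 in the lone untreated control library, 24.5 to 54.4 in the treated control and 5.70 to 20.1 in the treated shARVCF libraries. Treated libraries held 5.15 to 14.1 of EGF in the control line and 10.3 to 12.6 in the shARVCF lines.

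Of the adaptors and kinases that relay the signal, 2 of 23 tested rose and 4 fell in the shARVCF lines (26.1% called, beside 42.8% of all), and the median was -0.03. In the control line 4 rose and 14 fell (78.3% called, beside 57.1% of all), with a median of -0.65, the latter including the adaptor GAB1 (-2.07, adjusted p = 8.36e-06) and the phosphatase PTPN11 (-1.42, adjusted p = 6.97e-07). With the length and GC trend removed 1 rose and 4 fell there (21.7%, beside 49.8%), and the median was 0.00. Under nutlin-3a 14 of the 23 were higher and 4 lower in the shARVCF lines (78.3% called, beside 58.4% of all), and 5 and 2 with the trend removed (30.4%, beside 38.9%).

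The next list covered receptor restraint and turnover, and not all of its genes are inhibitors of the receptors. It also holds EPS15, HGS, USP8, NF1 and RASA1. Of 21 tested, 4 rose and 4 fell in the shARVCF lines (38.1% called, near the 42.8% of all). LRIG1 (-1.19, adjusted p = 0.000133) and LRIG3 (-1.41, adjusted p = 0.000109) were among the latter, of which LRIG1 is known to promote receptor degradation. In the control line 1 rose and 16 fell (81.0% called, beside 57.1% of all), with CBL, the ubiquitin ligase of EGFR, at -1.67 (adjusted p = 1.05e-06) and LRIG3 at -2.72 (adjusted p = 6.06e-06). With the trend removed 2 rose and 7 fell there (42.9%, beside 49.8%), CBL at -0.68 and LRIG3 at -2.20, both still called. The median there moved from -0.92 to 0.09. Under nutlin-3a 15 of the 21 were higher and 2 lower in the shARVCF lines (81.0% called, beside 58.4% of all). With the trend removed 8 were higher and 3 lower (52.4%, beside 38.9%), and the median went from 0.81 to 0.10.

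Of 24 genes known to answer growth factors and ERK, 22 were tested. Nutlin-3a raised 9 and lowered 4 in the shARVCF lines (median 0.33), so that 59.1% were called beside 42.8% of all. It raised 12 and lowered 4 in the control line (median 0.69), where 72.7% were called beside 57.1% of all. CCND1, which encodes cyclin D1, rose by 0.87 in the shARVCF lines (adjusted p = 3.42e-06), and EPHA2 by 1.12 (adjusted p = 1e-05). VGF, a secreted neuropeptide precursor, rose by 1.48 in the shARVCF lines and 2.48 in the control line (adjusted p = 4.94e-06 and 1.05e-06). PHLDA1 fell by 1.32 on the log2 scale in the shARVCF lines (adjusted p = 1.04e-05). Under nutlin-3a 6 of the 22 were higher and 9 lower in the shARVCF lines (68.2% called beside 58.4% of all, median -0.19), among the lower ETV4 (-1.05, adjusted p = 4.57e-06) and IER2 (-1.07, adjusted p = 9.66e-06). With the trend removed these counts were 3 and 7 (45.45% called, beside 38.9% of all), with the same median of -0.19. ETV4 was then at -0.54 and IER2 at -0.67, both still called.

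**Figure D5:**
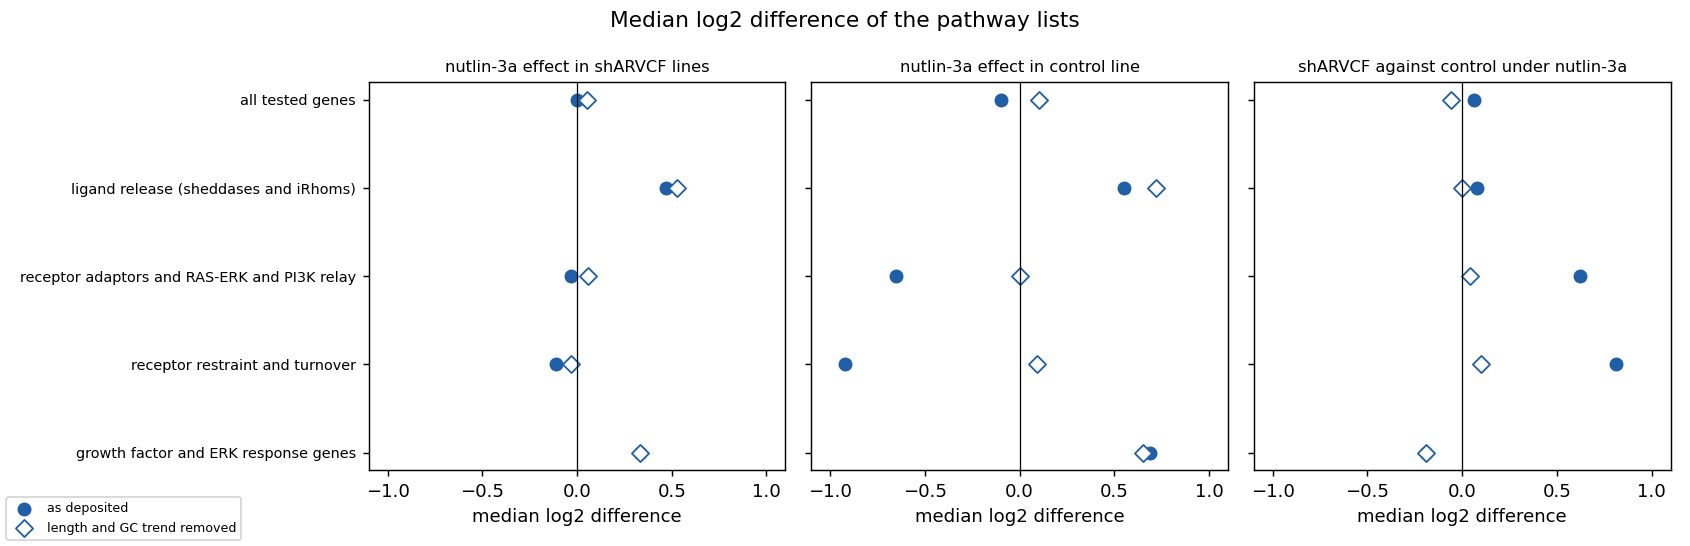
Median log2 difference of 4 pathway lists and of all tested genes in 3 comparisons. Circles are values as deposited and diamonds those with the length and GC trend removed. In the control line the relay list moves from -0.65 to 0.00, and the restraint and turnover list from -0.92 to 0.09. The response genes stay at 0.69 and 0.65 there.

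By likeness of profile over the 10 libraries (root mean square distance of centred log2 values, 11896 genes compared), the nearest genes to EGFR were IGF2R (0.163), PPFIBP1 (0.165) and FYCO1 (0.181). IGF2R, for example, averaged 6732, 5918, 6788 and 13040 in the untreated control, treated control, untreated shARVCF and treated shARVCF groups. All 3 have long transcripts, of 6001 to 14044 nt. The nearest genes to HBEGF were SFN (0.161), HSD17B1 (0.199) and DNAJB2 (0.214). SFN, which encodes 14-3-3 sigma and is a known p53 target, averaged 5659, 41190, 4939 and 12930 in the same order. TGFA was nearest to KIAA0513 (0.113), EHHADH (0.123) and IDS (0.124). ERRFI1 was nearest to PLAU (0.105), PRPF4 (0.124) and PARP1 (0.138), and PLAU, the urokinase gene, averaged 1717, 875.5, 2285 and 1008.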

How the data were processed

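Poly(A) RNA of 10 U2OS libraries was sequenced after stranded library preparation, per the labels' protocols. Per the submitters' processing notes, the authors used bcl2fastq 1.8.3, HISAT2 2.1.0 on hg38 and Cuffnorm 2.2.1. The deposited table holds a signal, estimated fragments per gene scaled per library by the authors. Between 50.4% and 57.1% of positive values were whole multiples of a library's commonest low value (tolerance 0.01), which gave estimated unscaled totals of 15073578 to 21096205 fragments. The annotation behind the table and the use of strand are not given in the sources used here.

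limma 3.58.1 (R 4.3.3) was fitted to log2(value + 1) with 4 group means over 10 libraries (6 residual degrees of freedom, trend and robust variance moderation), on the 14955 genes with at least 10 in at least 3 libraries, two-sided, with Benjamini-Hochberg adjustment over all of them. The lone untreated control library was assumed to vary like the others. The fit was tested on simulated data. Lengths, GC and positions came from GENCODE release 29 (24016 symbols matched by name, 716 by another name, 1308 not), and promoters from RefSeq. The length and GC trend was removed per library with splines of 4 degrees of freedom. Alternatives were pseudocounts of 0.1 and 10, other filters and scalings, library series, a replicate block on line and each library left out. Same-numbered shARVCF libraries come from the same line and deviated together (r 0.275, 0.288 and 0.327 across genes), so the numbers pair them. Members and lists were chosen with earlier results of these data known. Named were all members, ARVCF, MDM2 and CDKN1A as checks, marker genes, up to 4 genes of a list by adjusted p in a comparison, and the 3 nearest profiles among genes with a mean of at least 50. Some of these names are not reported here.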

Additional observations from a re-analysis of the deposited data

Results flagged for a closer look

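Of the 9 tested members, 3 were called different in their response to nutlin-3a between the shARVCF lines and the control line. The test was the limma test of the difference itself. This is 33.3% of members, near the 31.8% of all tested genes. HBEGF differed by log2 -1.32, AREG by -1.03 and EGFR by 1.25. With the length and GC trend removed only HBEGF stayed called, at -1.19. AREG was then at -0.77 (adjusted p = 0.0561) and EGFR at 0.29 (adjusted p = 0.559). MDM2, which was included as a check of the drug, also differed, by 1.03 (adjusted p = 0.00542), and by -0.13 with the length and GC trend removed (adjusted p = 0.781).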

How the results depend on the processing

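Over 45 differences of members and 720 alternatives, 662 kept direction and side of the threshold, 24 lost and 15 gained a call, and 19 changed sign, 1 of them called in either fit (EGFR in the control line, 0.74 with the length and GC trend removed). The cause was not tested.

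Removing that trend gave 8 members called in the control line, 3 under nutlin-3a and 1 for the difference of effects, with 5726 genes called under nutlin-3a and 1994 for the difference. It turned NRG1 (-0.37) and ERRFI1 (-0.12) under nutlin-3a and ERBB2 (-0.04), TGFA (-0.31) and NRG1 (-0.44) in the difference of effects. The first library series alone, and series as a term, leave only replicate 1 to set the treated control level. Counts of members called in these settings are therefore not given. Total scaling turned EREG (0.05) and ERRFI1 (0.08) in the difference. It moved the median of all genes from -0.10 to -0.21 in the control line and from 0.06 to 0.17 under nutlin-3a, and upper-quartile scaling moved the former to 0.04. Genes called without drug numbered 8 and 0 with pseudocounts of 0.1 and 10, 0 with the trend removed, 1 in the first series, and 1 to 5 with a library left out.

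With a library left out, values without drug ran from -0.24 to 0.10 for EGFR, -0.14 to 0.11 for ERBB3 and -0.33 to 0.42 for NRG1. In the difference of effects they ran from -0.02 to 0.20 for ERBB2, -0.38 to 0.32 for EREG and -0.14 to 0.08 for ERRFI1. Leaving out the untreated control library leaves no fit for the comparisons that need it.

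The replicate block called 7157 genes and 9 members in the shARVCF lines, 9239 and 6 in the control line, and 5764 and 4 for the difference of effects. Besides the calls of ERBB2, EREG and ERBB3 given above it changed no call of a member. The block pairs no libraries within the control line, and it could not be fitted between shARVCF and control lines. The depth limits BTC, and ERBB3 in treated control libraries.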
